A study of Caenorhabditis elegans with 16 samples.

Results

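The glutathione S-transferase (GST) genes of Caenorhabditis elegans were followed here in whole worms carrying the cua-1(H828Q) genotype and in control worms, each on plates without added copper and on plates with 100 µM CuCl2. The family was taken as every gene whose symbol in the count table begins with gst, gsto or gstk followed by a number. This gave 49 of 46904 genes, of which 44 were gst, 3 gsto and 2 gstk genes. Of these, 25 had enough counts to be tested, 21 had counts too low for a test and 3 (gst-17, gst-18 and gst-37) had 0 counts in all libraries.

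The study holds 16 libraries of worm RNA, with 4 labelled biological replicates in each of 4 groups: untreated control, copper-treated control, untreated mutant and copper-treated mutant. Synchronised worms of all groups spent 3 days at 20 °C on agar plates with E. coli OP50. The labels give no strain name for the control, no age beyond the days on the plate and no tissue. Libraries were made from message 3′ ends, so the H828Q substitution itself cannot be read from the counts. The gene cua-1 encodes the worm's copper-pumping ATPase, the homolog of the human pumps ATP7A and ATP7B, and had mean levels of 11.8 ± 7.33 CPM (SD, n = 4) in untreated controls and 29.3 ± 7.21 CPM in untreated mutants (log2 difference 1.29, adjusted p = 0.0429). On copper it stood at 24.6 ± 9.29 CPM in controls and 17.7 ± 7.15 CPM in mutants (-0.47, adjusted p = 0.654). When 5 libraries with few long transcripts were left out, the untreated difference was 0.36 (adjusted p = 0.44). CPM denotes read counts scaled to library size, with the sizes adjusted by the TMM method.

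GSTs join the peptide glutathione to electrophilic compounds, which makes these more soluble and ready for export, and some reduce peroxides. In nematodes the soluble class has grown into a large family, and several members are known targets of SKN-1, the worm counterpart of the mammalian Nrf factors that switch on detoxification genes under oxidative stress. Omega-class enzymes (gsto) act mainly as thiol transferases, and kappa-class enzymes (gstk) are known from mammalian mitochondria and peroxisomes. Copper ions cycle between redox states and bind to the thiol of glutathione.

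Libraries differed in their content of long transcripts, and the GST transcripts are short. In 5 libraries, untreated control replicates 1, 3 and 4, copper-treated control replicate 1 and copper-treated mutant replicate 4, the median log2 CPM of genes over 3000 bp lay far below that of genes under 800 bp, by -2.28 to -0.684. The other 11 libraries ran from 0.198 to 1.08. Among them the copper-treated mutant lay at 0.198 to 0.473, the copper-treated control at 0.939 to 1.08 and the untreated mutant at 0.539 to 1.01. The remaining untreated control library was at 0.622. The longest transcripts of the 49 GST genes measure 594 to 1154 bp, with a median of 745 bp against 1381 bp for the genes tested. Summed over all 49 genes, the family reached 884.8 to 1326 CPM in the 5 libraries and 608.5 to 812.7 CPM in the other 11, without overlap. The part of this length imbalance in the results was not tested beyond fits without the 5 libraries and fits corrected for length. Leaving out the 5 libraries does not remove the imbalance, because the copper-treated mutant still lies below the other groups in it. Total counts per library ran from 1891008 to 4001750, and 1278 to 3633 of them fell in the family.

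**Figure D1:**
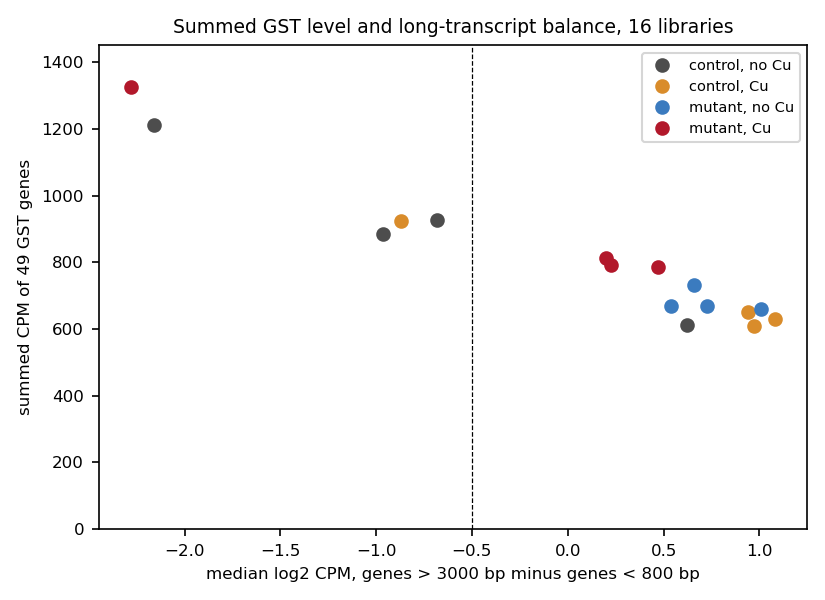
Each point is 1 of the 16 libraries, coloured by group. The horizontal axis gives the median log2 CPM of genes over 3000 bp minus that of genes under 800 bp, with a dashed line at -0.5, and the vertical axis the summed CPM of the 49 GST genes. The 5 libraries left of the line lie between 884.8 and 1326 CPM and the others between 608.5 and 812.7 CPM.

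A few genes carried most of the family's counts. The pi-class gene gst-1 (chromosome III, 9059331 to 9060181) held 38% of them, gst-7 18.8% and gst-27 13.1%. Mean levels over the 16 libraries were 311.4 CPM for gst-1, 150.6 CPM for gst-7 and 107 CPM for gst-27. Divided by transcript length the order was the same, at 415.8, 202.2 and 144.2 CPM per kb. With libraries made from message 3′ ends, counts need not scale with length, so this division adds no check of the order. Next came gst-26 at 44.28 CPM and gst-36 at 28.34 CPM, and the other tested genes had means of 2.191 to 17.38 CPM. Among the genes too low to test, the largest total was 105 counts over all libraries, for gsto-3.

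**Figure D2:**
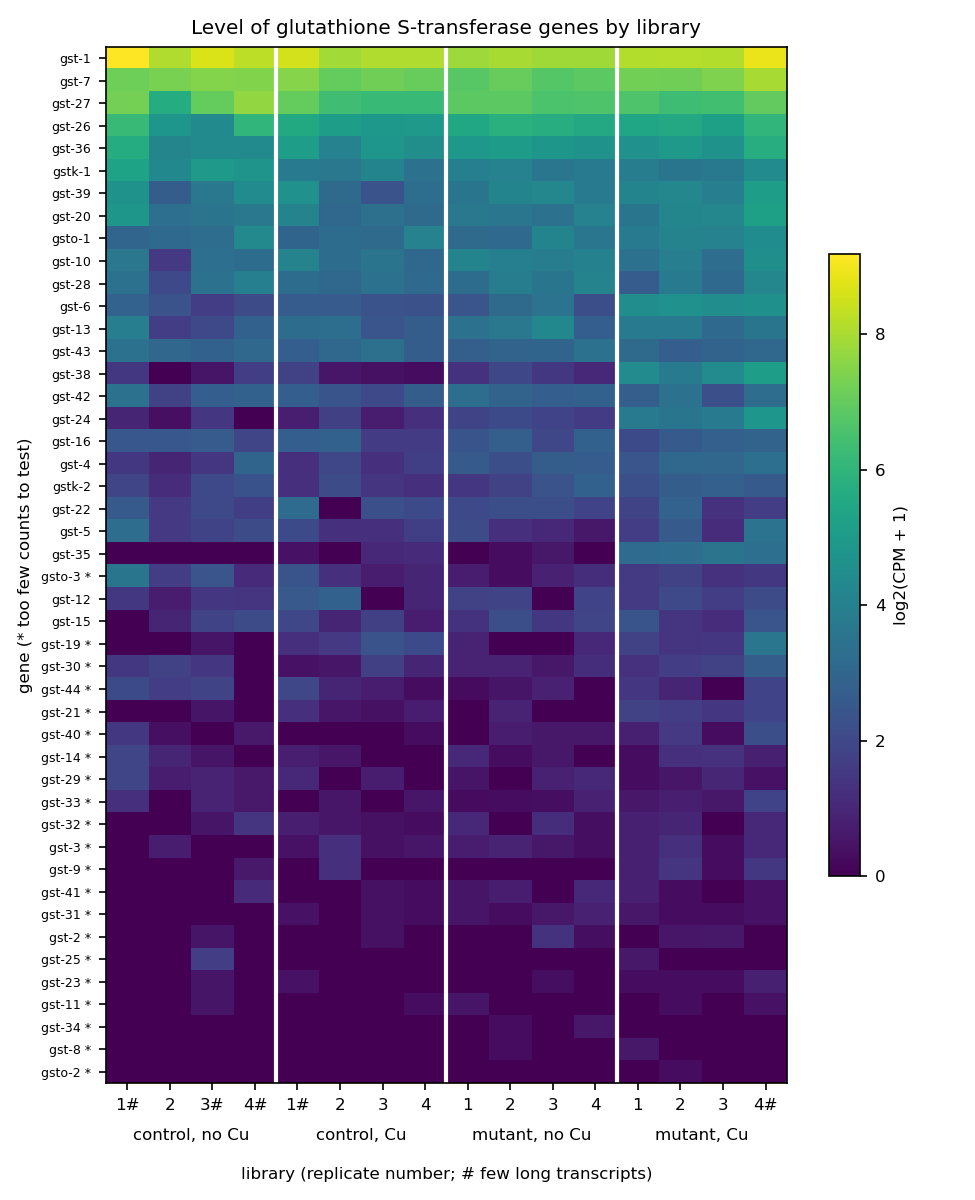
Colours give log2(CPM + 1) of the GST genes with any count (rows, ordered by mean level) in each of the 16 libraries (columns, by group and replicate number). A star marks genes too low to test and # the 5 libraries with few long transcripts. The rows of gst-6, gst-24, gst-35 and gst-38 are brighter in the 4 copper-treated mutant libraries than in the other 12.

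The clearest change in the family was a rise of gst-24, gst-35, gst-38 and gst-6 in the copper-treated mutant. All 4 were called higher there against the copper-treated control and against the untreated mutant, and none of their values in the 4 copper-treated mutant libraries overlapped with those of either group. The share of all genes whose groups lay apart in this way was not counted. Here and below, a lack of overlap describes the values and is no test. Against the control on copper the rises spanned 4.95-fold for gst-6 to 24.9-fold for gst-38.

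The level of gst-38 (chromosome V, 15915162 to 15916070, minus strand) was 20.6, 12.7, 20.6 and 34 CPM in replicates 1 to 4 of the copper-treated mutant. Untreated mutants held 1.54, 2.94, 1.82 and 1.03 CPM. Copper-treated controls held 2.49, 0.476, 0.338 and 0.228 CPM, and untreated controls 1.84, 0, 0.441 and 2.25 CPM. Every copper-treated mutant library stood above all 12 others, which held 0 to 2.94 CPM. On the log2 scale the gene was 4.64 ± 0.66 (SE) higher in the mutant than in the control on copper (edgeR quasi-likelihood test, adjusted p = 0.000467). Copper against none in the mutant gave 3.54 ± 0.57 (adjusted p = 0.00192).

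The level of gst-24 (chromosome II, 13610443 to 13611366, minus strand) was 12.8, 11, 13.2 and 27.7 CPM in the copper-treated mutant. The untreated mutant held 2.65, 3.16, 2.6 and 2.06 CPM, the copper-treated control 0.712, 2.38, 0.676 and 1.37 CPM, and the untreated control 0.918, 0.311, 1.76 and 0 CPM. The untreated mutant lay above every untreated control library, without overlap, and the copper-treated mutant above both. Its log2 difference between mutant and control was 3.66 ± 0.50 on copper (adjusted p = 0.000367) and 1.76 ± 0.62 without copper, where it missed the threshold (adjusted p = 0.0501) but passed it in 8 of 24 other analyses (adjusted p from 0.0163 to 0.102). Copper raised it in the mutant by 2.6 ± 0.44 (adjusted p = 0.00303).

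The gene gst-35 (chromosome II, 15183807 to 15185389, minus strand) was nearly absent outside the copper-treated mutant. It stood at 8.34, 8.84, 10.5 and 9.13 CPM there. Untreated mutants held 0, 0.226, 0.52 and 0 CPM, and copper-treated controls 0.356, 0, 1.01 and 1.14 CPM. The untreated control had 0 counts in all 4 libraries, which allows a level of up to 0.318 CPM at 3 counts over the group. The mutant on copper was higher than the control on copper by 3.64 ± 0.59 on the log2 scale (adjusted p = 0.00205). Against the untreated mutant, with 3 counts in all, the ratio was 51.3 with an exact 95% counting interval of 17.2 to 252 (edgeR adjusted p = 0.000416). The copper-treated control, with 9 counts in all, was not called against the untreated control (adjusted p = 0.15).

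The level of gst-6 (chromosome II, 4879891 to 4881105, plus strand) was 21.6, 24.1, 21.8 and 23.7 CPM in the copper-treated mutant. Untreated mutants had 4.41, 8.13, 10.4 and 3.6 CPM. Copper-treated controls had 5.34, 5.24, 4.06 and 3.88 CPM, and untreated controls 6.43, 4.05, 2.2 and 3.37 CPM. The remaining groups overlapped with one another. Mutant against control on copper gave 2.31 ± 0.35 (adjusted p = 0.000756), and copper against none in the mutant gave 1.78 ± 0.33 (adjusted p = 0.006). No other gene is annotated across gst-6, gst-24, gst-35 or gst-38 on either strand, but how far their reads could be shared with similar GST genes was not assessed.

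**Figure D3:**
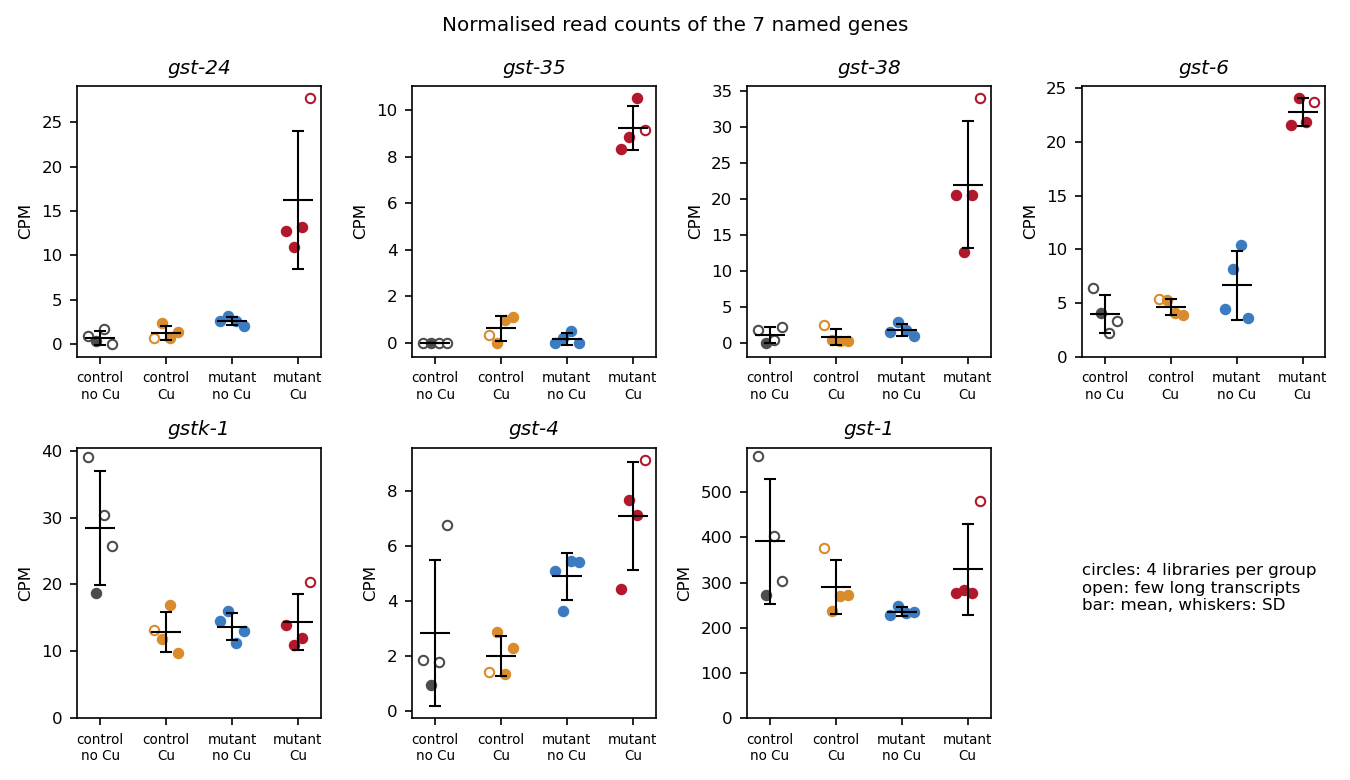
Normalised read counts (CPM, linear axes) of the 7 genes described one by one, in the 4 groups. Circles are libraries, open where long transcripts were few, bars are means and whiskers the SD of 4 libraries. For gst-24, gst-35, gst-38 and gst-6 the 4 copper-treated mutant libraries lie above all others, while gstk-1 and gst-1 are highest in untreated control replicate 1.

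The calls on these genes held in all 24 other analyses of each comparison, including those without the 5 libraries with few long transcripts, where the log2 differences between mutant and control on copper were 3.1 for gst-24, 3.41 for gst-35 and 2.37 for gst-6. For gst-38 the copper-treated control then had 3 counts in 3 libraries, and the ratio was 56.4 with an exact 95% counting interval of 19 to 275. Of them, gst-24, gst-35 and gst-38 reached the count filter only through the copper-treated mutant, so that their presence among the tested genes was tied to their rise there. The interaction tests whether the mutant's copper response differs from the control's in either direction. It was 3.78 ± 1.11 for gst-38 (adjusted p = 0.0568), 1.59 ± 0.51 for gst-6 (adjusted p = 0.0763) and 1.90 ± 0.89 for gst-24 (adjusted p = 0.171), so a difference in copper response was not called for them. In other analyses the adjusted p of gst-38 ran from 0.00316 to 0.822 and that of gst-6 from 0.0398 to 0.19, each passing in 4 of 23. Both passed with DESeq2, without untreated control replicate 2 (adjusted p = 0.0129 and 0.0491) and without copper-treated control replicate 1 (0.0107 and 0.0406), while gst-6 passed without untreated mutant replicate 3 (0.0418) and gst-38 with the filter lowered to 1 count (0.04). The fitted interaction without the 5 libraries was 1.71 for gst-6 (adjusted p = 0.0904). The lone untreated control library of that fit had 0 counts of gst-38, where the fit gave the 0.822, and 1 count of gst-24, so no interaction value is given for these genes. For gst-35 no interaction value is given because the untreated control had 0 counts.

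The gene gst-4, whose promoter drives a widely used reporter of SKN-1 activity, was measured at 4.42, 7.65, 7.11 and 9.13 CPM in the copper-treated mutant and 5.07, 3.61, 5.46 and 5.41 CPM in the untreated mutant. The control held 1.42, 2.86, 1.35 and 2.28 CPM with copper and 1.84, 0.934, 1.76 and 6.74 CPM without. All mutant libraries lay above all copper-treated control libraries, while untreated control replicate 4 exceeded every untreated mutant library. The mutant on copper was higher than the control on copper by 1.82 ± 0.48 on the log2 scale (adjusted p = 0.0253). This call was lost in 7 of 24 other analyses, namely without copper-treated control replicate 1 (adjusted p = 0.0627), 3 (0.0922) or 4 (0.0627), without copper-treated mutant replicate 2 (0.0677), 3 (0.0544) or 4 (0.0574), and with length offsets (0.0606). Adjusted p over these analyses ran from 0.0047 to 0.0922.

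Copper itself gave no called change of gst-4. The value was 0.52 ± 0.42 in the mutant (95% interval -0.395 to 1.44, adjusted p = 0.61) and -0.41 ± 0.54 in the control (-1.59 to 0.759, adjusted p = 0.633). Without copper the genotypes differed by 0.89 ± 0.48 (adjusted p = 0.169). Without untreated control replicate 4 that difference was 1.71 (adjusted p = 0.0166). The gene gst-4 (chromosome IV, 10142225 to 10143099) overlaps dhs-12 on the same strand in the annotation, and reads from their shared stretch cannot be assigned to either.

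In all, 5 of 25 tested GST genes rose and 0 fell in the mutant against the control on copper, where 6.93% of all genes tested were called, 6.39% higher and 0.542% lower. Of the 5, gst-24, gst-35 and gst-38 passed the count filter only through the copper-treated mutant, so this count partly follows from the filter. The median log2 difference was 0.58 over the 25 genes and -0.04 over all genes (0.545 and -0.025 without the 5 libraries). The other 20 tested genes ran from -0.25 (gst-22) to 1.43 ± 0.47 for the kappa-class gene gstk-2 (adjusted p = 0.0798). In gstk-2 the copper-treated mutant, at 3.68, 5.5, 6.13 and 5.11 CPM, did not overlap with the copper-treated control, at 1.42, 3.33, 1.69 and 1.37 CPM. In the annotation gstk-2 overlaps elo-3 on the other strand and a piRNA gene on the same strand, so some of its reads could be theirs. The omega-class gene gsto-1 was at 0.71 ± 0.37 (adjusted p = 0.365). The abundant gst-1 and gst-7 were at 0.18 ± 0.25 (95% interval -0.367 to 0.735) and 0.29 ± 0.20 (adjusted p = 0.76 and 0.557). Without the 5 libraries, gst-20 (0.86, adjusted p = 0.0204) and gst-39 (1.19, adjusted p = 0.00254) were also called, for 7 higher and 0 lower, beside 23.4% of all genes called in that fit (14.9% higher and 8.52% lower).

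For copper against none in the mutant, 4 of 25 rose and 0 fell, beside 2.24% of all genes called, 1.78% higher and 0.46% lower. Again gst-24, gst-35 and gst-38 were among the 4 and passed the count filter only through the copper-treated mutant. The median was 0.42 over the 25 genes and 0.02 over all genes (0.16 and -0.01 without the 5 libraries). Among genes not called, gst-7 had copper-treated libraries of 149, 145, 167 and 250 CPM above untreated ones of 111, 132, 107 and 116 CPM, without overlap. Its log2 difference was 0.61 ± 0.21 (adjusted p = 0.166). The highest value was that of gst-5 at 1.49 ± 0.66 (adjusted p = 0.374). When the 5 libraries were left out gst-7 was called too (0.38, adjusted p = 0.017), for 5 higher and 0 lower, beside 14.5% of all genes called in that fit (7.62% higher and 6.89% lower).

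**Figure D4:**
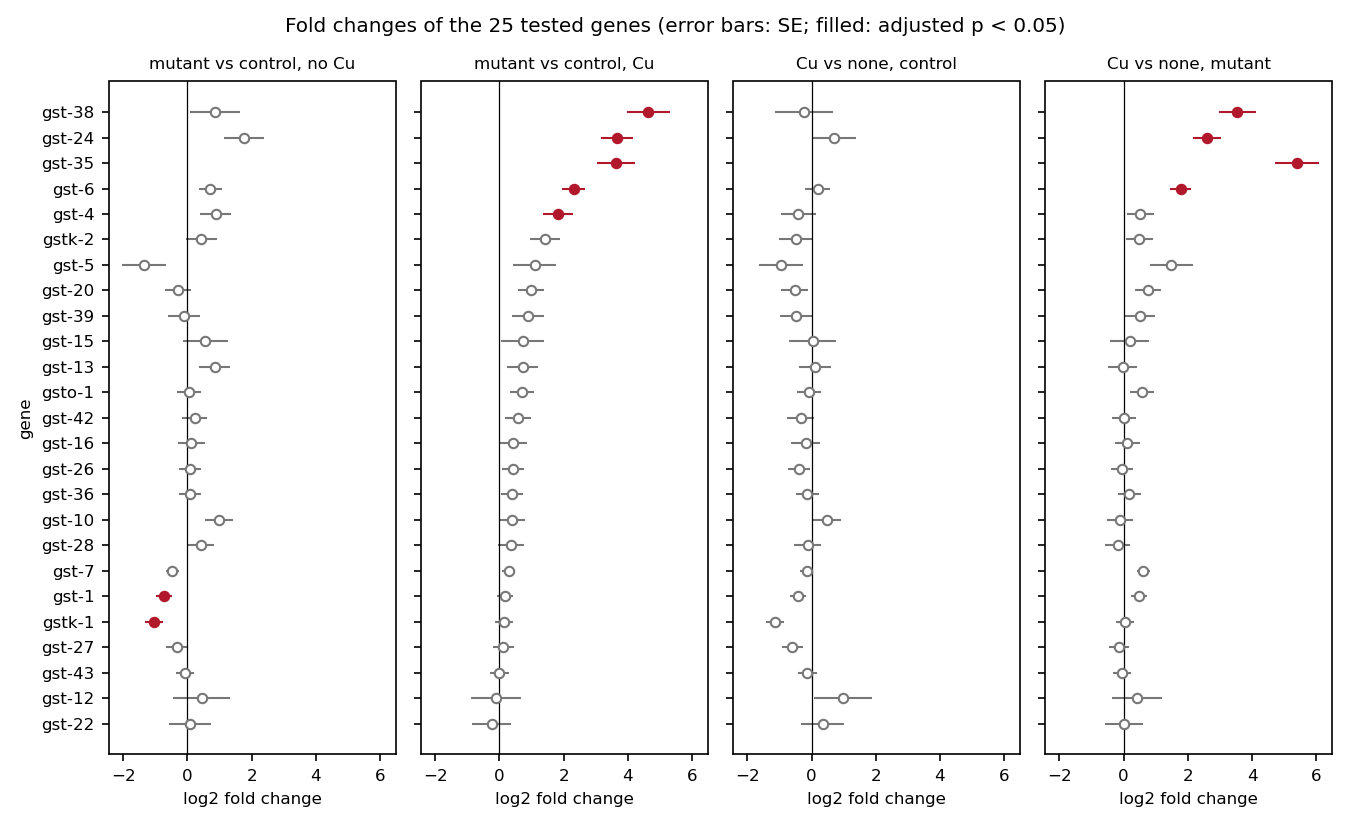
Log2 fold changes (points) with their SE (lines) of the 25 tested GST genes in 4 comparisons, ordered by the mutant against the control on copper. Filled red points passed an adjusted p of 0.05: 2 lower without copper, 5 higher with copper, 0 for copper in the control and 4 higher for copper in the mutant. Points of gst-35 are left out for the comparisons with the untreated control, which had 0 counts.

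In the control, copper moved no GST gene past the threshold. The edgeR test called 0 of 25, beside 1.78% of all genes, 0.46% higher and 1.32% lower. An unadjusted p under 0.05 was reached by 2 of the 25, gstk-1 (lower) and gst-35 (higher), and by 19.1% of all genes. DESeq2 called 1 lower, gstk-1, beside 4.5% of all genes called. Here the median was -0.15 over the 25 genes and -0.05 over all genes. The lowest values were those of gstk-1 (-1.14 ± 0.28, adjusted p = 0.0501, passing in 5 of 24 other analyses) and gst-5 (-0.95 ± 0.70). The 95% interval of the control's response was -0.657 to 1.03 for gst-6, -0.824 to 2.23 for gst-24 and -2.19 to 1.71 for gst-38. The difference from the mutant's response is the interaction given above, which was not called. For gst-35 the control held 9 counts with copper and 0 without. That is at least 2.31-fold higher if up to 3 counts are allowed for the untreated group (edgeR unadjusted p = 0.00891, adjusted p = 0.15). Without the 5 libraries, which leaves 1 untreated control library, the control's response was 0.03 for gst-6 (adjusted p = 0.982), beside 1.75 in the mutant. For gst-24 the control then held 13 counts in 3 copper-treated libraries and 1 count in the untreated one, a ratio of 4.42 with an exact 95% counting interval of 0.664 to 188, and for gst-38 it held 3 counts and 0 counts, too few for a ratio. In that fit the median over the 25 genes was 0.41, and gst-10 was called higher (2.15, adjusted p = 0.0198), beside 4.78% of all genes called.

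Without copper, 2 of 25 genes were lower in the mutant and 0 higher, beside 21.9% of all genes called, 12.5% lower and 9.39% higher. The median was 0.12 over the 25 genes and 0.0022 over all genes (1.04 and -0.0061 without the 5 libraries, which leaves 1 untreated control library). The kappa-class gene gstk-1 (chromosome II, 9656705 to 9657719, plus strand) stood at 39, 18.7, 30.4 and 25.8 CPM in the untreated control and 14.6, 16, 11.2 and 13.1 CPM in the untreated mutant, without overlap. It was 13.2, 11.9, 16.9 and 9.81 CPM in the copper-treated control and 14, 11, 12 and 20.4 CPM in the copper-treated mutant. Copper-treated mutant replicate 4, a library with few long transcripts, exceeded untreated control replicate 2, and the genotypes overlapped on copper.

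In the untreated mutant gstk-1 was lower by a log2 value of -1.05 ± 0.28 (adjusted p = 0.021). The call was lost without the 5 libraries (-0.49, adjusted p = 0.305), without untreated control replicate 1 (adjusted p = 0.0633) and without untreated mutant replicate 1, 3 or 4 (0.0503, 0.0588 and 0.0583). On copper the genotypes differed by 0.14 ± 0.28 (95% interval -0.473 to 0.76), and the interaction was 1.19 ± 0.40 (adjusted p = 0.087). Adjusted p of the untreated comparison ran from 0.0043 to 0.305 over all 24 other analyses.

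The most abundant gene, gst-1, stood at 581, 273, 404 and 304 CPM in the untreated control against 228, 249, 232 and 234 CPM in the untreated mutant. The copper-treated control held 377, 238, 271 and 273 CPM and the copper-treated mutant 278, 283, 276 and 481 CPM. Untreated mutant libraries lay within a narrow band below all 4 untreated control libraries, and the highest library in each of the 3 remaining groups was one with few long transcripts. The log2 difference without copper was -0.73 ± 0.25 (adjusted p = 0.0489). It lost its call in 17 of 24 other analyses, with adjusted p from 0.0168 to 0.197, and was -0.27 without the 5 libraries (adjusted p = 0.197) and -0.47 without untreated control replicate 1 (adjusted p = 0.178).

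Of the 5 libraries with few long transcripts, 3 belong to untreated controls and 0 to untreated mutants, and this comparison turned when they were left out. That fit keeps 1 untreated control library, replicate 2, and takes its spread from the remaining groups. In it 9 of the 25 genes were called higher and 1 lower, beside 17.5% of all genes called in either direction. Higher were gst-10, gst-13, gst-24, gst-26, gst-27, gst-28, gst-38 (0 counts in the remaining control library), gst-39 and gst-4, and the lower one was gst-7 (-0.49, adjusted p = 0.0316). The value of gst-27 went from -0.33 ± 0.32 (adjusted p = 0.43) to 1.04 (adjusted p = 0.000275). That of gst-10, a pi-class gene, went from 0.99 ± 0.43 (adjusted p = 0.0943) to 2.94 (adjusted p = 0.000136). The level of gst-10 was 11.5, 1.87, 9.26 and 8.43 CPM in the untreated control, so the remaining library was the lowest of its group, against 16.8, 14.5, 13.8 and 15.4 CPM in the untreated mutant. With length offsets and all 16 libraries, 4 were called higher and 1 lower, beside 26.5% of all genes called.

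The interaction was called for 0 of 25 genes by edgeR, beside 5.38% of all genes, 4.11% higher and 1.28% lower. An unadjusted p under 0.05 was reached by 8 of the 25 and by 28.8% of all genes. DESeq2 called 2, gst-38 (3.76, adjusted p = 0.00316) and gst-6 (1.53, adjusted p = 0.0398), beside 10.5% of all genes. The median was 0.65 over the 25 genes and 0.08 over all genes. Without untreated control replicate 2 the edgeR test called 4 genes, gst-38, gst-6, gstk-1 and gst-1, all positive, with adjusted p of 0.0129, 0.0491, 0.0262 and 0.0412, beside 22.1% of all genes called. The median over the 25 genes was -0.13 without the 5 libraries, and gst-7 was called positive (0.67, adjusted p = 0.0255) and gst-10 (-2.62, adjusted p = 0.00341) and gst-27 (-0.86, adjusted p = 0.0121) negative, beside 12.2% of all genes called.

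Of 49 genes, 26 lie on chromosome II, 9 on V, 5 on IV, 4 on III, 3 on X and 2 on I (WBcel235, the assembly also named ce11). When genes with gaps of at most 50 kb were joined, 26 fell into 4 runs. Chromosome II holds a run of 9 genes from gst-20 to gst-18 within 22.7 kb, a second of 9 from gst-26 to gst-35 within 21.6 kb, and one of 5 from gst-6 to gst-30 within 55.2 kb. The fourth run, on chromosome IV, holds gst-3, gst-2 and gst-4 within 3.7 kb.

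In these runs, called genes lay beside genes that were not called. The gene gst-24 lies 618 bp from gst-20 and 403 bp from gst-15, and the mutant's copper response was 2.6 ± 0.44 for gst-24, 0.76 ± 0.40 for gst-20 (adjusted p = 0.471) and 0.19 ± 0.61 for gst-15 (adjusted p = 0.895). The gene gst-6 ends 956 bp before gst-7, with 1.78 ± 0.33 against 0.61 ± 0.21. At the far end of the second run, gst-35 was called while gst-26, gst-27, gst-28 and gst-39 ran from -0.18 to 0.51. Each of the 3 runs on chromosome II thus held 1 gene called in this comparison, and gst-38 lies alone on chromosome V. Differences between neighbours were not tested as such.

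**Figure D5:**
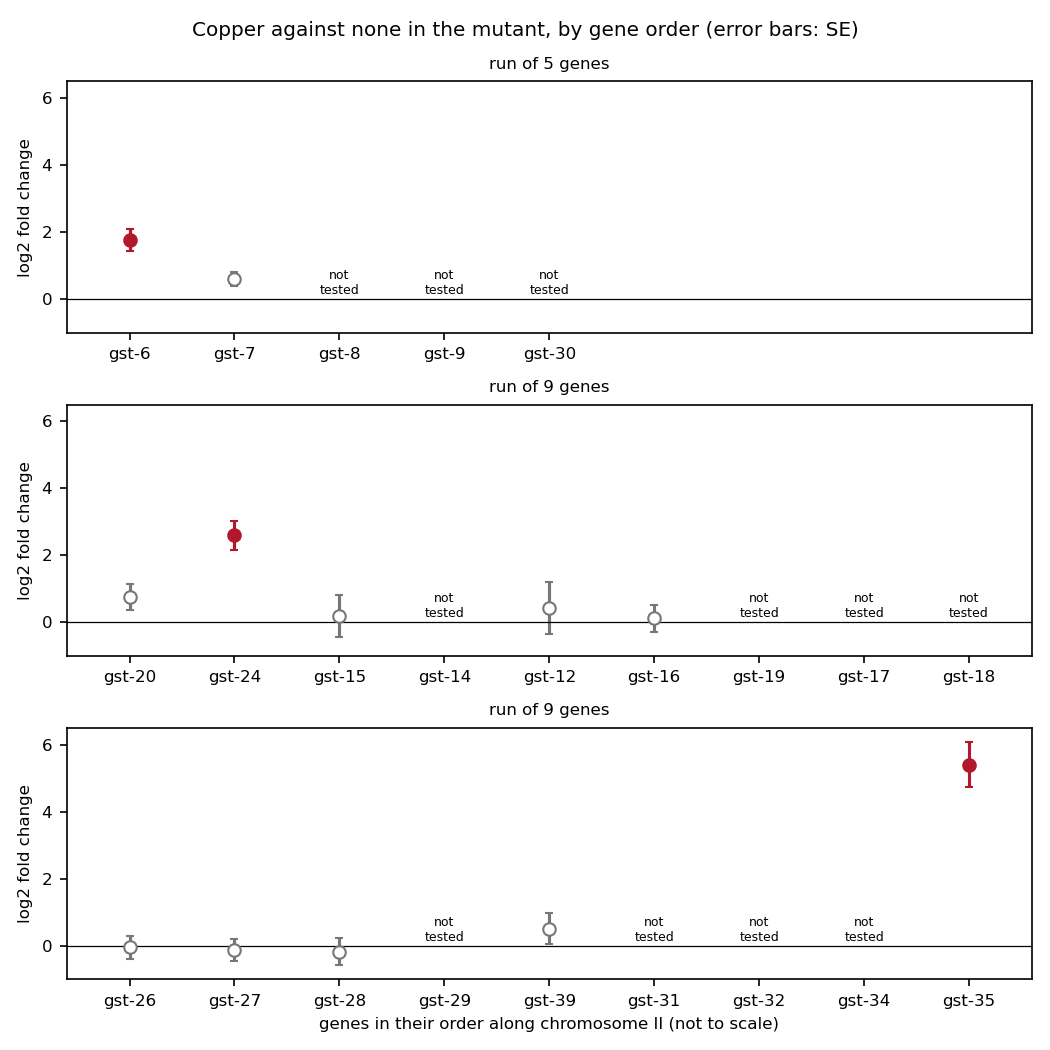
Log2 fold change of copper against none in the mutant (points, SE as bars) for the 3 runs of GST genes on chromosome II, in gene order and not to scale. Filled red points are called. Only gst-6, gst-24 and gst-35 among the tested genes of these runs are called, and genes too low to test are written as such.

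Among the 24 genes that were not tested, counts in the 4 copper-treated mutant libraries were 10, 9, 7 and 7 for gst-21 against 0, 4, 0 and 0 in untreated mutants. Copper-treated controls held 4, 1, 1 and 3, and untreated controls 0, 0, 1 and 0. All 4 lay above the other 12. For gst-19 they were 10, 7, 7 and 31 in the copper-treated mutant and 4, 4, 12 and 14 in the copper-treated control, against 4, 0, 0 and 4 and 0, 0, 1 and 0 without copper. Both copper-treated groups of gst-19 were at or above the highest untreated library. The omega-class gene gsto-3 had 24, 7, 10 and 2 counts in the untreated control and 3, 1, 3 and 5 in the untreated mutant. These 3 genes were chosen after their values were seen. With the filter lowered to 1 count, gsto-3 was called lower in the untreated mutant (adjusted p = 0.0241) and no other gene below the filter was called in any of the 5 comparisons.

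The other genes of the pathway were read from 3 lists. Of 20 genes of glutathione synthesis and redox, 16 were tested, and 2 fell in the untreated mutant and 0 rose, beside 12.5% of all genes lower. They were E01A2.1 (-0.90 ± 0.27, adjusted p = 0.0295), which encodes the modifier subunit of glutamate-cysteine ligase, and the glutaredoxin gene glrx-21 (-1.25 ± 0.42, adjusted p = 0.0428). Neither held without the 5 libraries (adjusted p = 0.0583 and 0.94), where instead the glutathione peroxidase gene gpx-5 was called higher (2.3, adjusted p = 1.37e-05) and the glutathione reductase gene gsr-1 lower (-0.78, adjusted p = 0.0254). The catalytic subunit gene gcs-1, a known SKN-1 target, averaged 11.9 ± 5.67 CPM in untreated and 21.9 ± 7.94 CPM in copper-treated controls, and 26.3 ± 4.81 CPM in untreated and 23.5 ± 10.2 CPM in copper-treated mutants. It was not called by edgeR in any comparison, while DESeq2 called it without copper.

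Of 8 genes of the MRP family of ABC transporters, some members of which export glutathione conjugates, 7 were tested. In the untreated mutant mrp-5 (1.88 ± 0.54, adjusted p = 0.0266) and mrp-6 (1.70 ± 0.57, adjusted p = 0.0424) rose and 0 fell, beside 9.39% of all genes higher. Without the 5 libraries mrp-5 was at 0.77 (adjusted p = 0.0506) and mrp-6 at 2.19 (adjusted p = 0.0242), and mrp-4 was called lower (-0.60, adjusted p = 0.0178). DESeq2 called mrp-1 and mrp-2 besides mrp-5 and mrp-6 in the comparison without copper. Of 16 genes for regulators, all tested, 2 fell in the untreated mutant, again beside 12.5% of all genes, the gut GATA factor gene elt-7 (-1.58 ± 0.48, adjusted p = 0.0317) and mxl-2, which encodes a Max-like bHLH factor (-0.82 ± 0.26, adjusted p = 0.037). Without the 5 libraries elt-7 was at -2 (adjusted p = 0.00862) and mxl-2 at -0.31 (adjusted p = 0.293), while elt-2 (-1.09, adjusted p = 0.0314) and mdt-15 (-0.68, adjusted p = 0.0251) were called lower. Over the 3 lists, edgeR called 6 of 39 tested genes without copper, beside 21.9% of all genes, and DESeq2 11 beside 31%. The skn-1 transcript averaged 71.3 ± 22.2 CPM in untreated and 94.4 ± 9.76 CPM in copper-treated controls, and 86.6 ± 5.09 CPM in untreated and 82.2 ± 20.6 CPM in copper-treated mutants, and was not called. Both gcs-1 and skn-1 were picked out after their values were seen. For the other 4 comparisons edgeR called 0 of the 39 tested genes of the 3 lists. Of these, 1 had an unadjusted p under 0.05 for mutant against control on copper, 7 for copper in the control, 3 for copper in the mutant and 10 for the interaction, where 16.4%, 19.1%, 12% and 28.8% of all genes did. DESeq2 called 0, 1, 2 and 2, beside 9.19%, 4.5%, 4.42% and 10.5% of all genes. With the 5 libraries left out 1 was called for mutant against control on copper and 2 for copper in the mutant, beside 23.4% and 14.5% of all genes. The gut GATA factor gene elt-2 was then higher in the mutant on copper (0.81, adjusted p = 0.0207) and higher with copper in the mutant (1.39, adjusted p = 7.83e-05), where the thioredoxin reductase gene trxr-2 was lower (-1.77, adjusted p = 0.00151). In the control, with 1 untreated library left, the log2 value of gpx-5 with copper was 1.92. The interaction, which rests on the same 1 untreated control library, was then 1.89 for elt-2, 2.16 for elt-7, 0.80 for mdt-15, -2.07 for gpx-5 and -2.94 for mrp-6. These genes were picked from the 39 tested ones after their values were seen, and do not set the lists apart from other genes.

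Some markers of stage and tissue differed between the groups without overlap. The 6 yolk genes, made by the adult intestine, summed to 1800 to 7840 CPM in copper-treated and 15500 to 18600 CPM in untreated mutants. In controls they summed to 21000 to 22800 CPM with copper and 9990 to 22700 CPM without, with counts of all 6 in each group. Sperm genes summed to 2370 to 5400 CPM in the copper-treated mutant and 993 to 1480 in the copper-treated control, and to 2960 to 3200 and 851 to 2520 CPM without copper, with 41 to 44 of 47 counted in each group. The 6 muscle genes summed to 4610 to 6560 and 2760 to 4400 CPM in mutant and control on copper, and overlapped without it (3820 to 4190 and 3000 to 8130 CPM). On copper the genotypes overlapped in 8 intestinal genes (4150 to 8210 and 3180 to 6200 CPM in mutant and control), in eggshell and oocyte genes (6830 to 8770 and 7150 to 11700 CPM) and in cuticle collagens (52100 to 98900 and 31400 to 61800 CPM, 127 to 141 of 169 counted). Without copper, where gstk-1 and gst-1 were called lower, the intestinal genes summed to 3130 to 3820 CPM in the mutant and 4290 to 15500 CPM in the control. Eggshell and oocyte genes summed to 5850 to 6510 and 8690 to 11600 CPM there, both without overlap, while the collagens overlapped (45900 to 53200 and 23200 to 86500 CPM). Several ends of these ranges came from libraries with few long transcripts. Yolk genes at 1801 CPM and sperm genes at 5403 CPM were those of copper-treated mutant replicate 4. Yolk genes at 9993 CPM and intestinal genes at 15480 CPM were those of untreated control replicate 1. The part of that imbalance in the marker sums was not tested, nor was the part of the markers in the GST differences. In whole worms, fewer cells that express a gene and less of its RNA per cell cannot be told apart.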

How the data were processed

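The authors deposited raw counts per gene, unnormalized, for 16 libraries from a 3′ digital mRNA sequencing service (single reads, 100 cycles, per the labels' protocols). Per the submitters' processing notes, the tools were HTSeq, STAR 2.6.0a and bcl2fastq, with ce11 as the build. Settings, annotation release and strand use are not given in the sources used here, so reads of overlapping genes and of similar gene copies are of uncertain assignment. Columns were matched to samples by title. Positions came from Ensembl's WBcel235 annotation, matched by gene ID, with the same symbol for all 49 GST genes. Of these, 11 overlap an annotated gene on the other strand, among them gstk-2 and gst-5, and 4 overlap one on the same strand.

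Counts were tested with edgeR 4.0.16 (R 4.3.3, limma 3.58.1): TMM, filterByExpr defaults, 1 mean per group over 16 libraries, robust quasi-likelihood test, 12 residual degrees of freedom. Benjamini-Hochberg adjustment covered all 9787 genes tested, with 0.05 as the threshold. The procedure was tested on simulated data. Exact counting intervals and floors (3 counts over a group) cover counting error only. The 95% intervals of log2 differences come from the SE of the edgeR fit and include the spread between replicates. P-values measure the spread between the labelled replicates, and the labels do not say whether these were separate cultures.

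Values per library are given for genes called in any comparison and gst-4, and fold changes for up to 3 called genes of each pathway list. Other genes named were picked after their values were seen. Genes and lists were chosen with earlier results of these data known. The alternatives were DESeq2 1.42.0 and its size factors, 2 other filters, fits to each comparison's libraries alone, a replicate block, length offsets (lowess span 0.3), leaving out the 5 libraries with few long transcripts, and leaving out each library. No gene or protein sequences were used here.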

Additional observations from a re-analysis of the deposited data

Results flagged for a closer look

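Among the 28 sets of 4 libraries formed by 7 genes and 4 groups, 4 held a library far from the other 3, where chance flags about 1 in 20 sets. In the copper-treated mutant, replicate 4 stood at 27.7 CPM for gst-24 with the others at 11 to 13.2, and at 481 CPM for gst-1 with the others at 276 to 283. For gst-38, copper-treated control replicate 1 held 2.49 CPM and the others 0.228 to 0.476. For gst-4, untreated control replicate 4 held 6.74 CPM and the others 0.934 to 1.84. All 4 values are high ones, and each comes from a library with few long transcripts (long minus short balance of -2.28, -0.869 and -0.684). Whether that imbalance set these values was not tested.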

How the results depend on the processing

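The number of GST genes called was within 1.5 times the main count in all 24 alternatives for mutant against control on copper (4 to 7 genes) and for copper in the mutant (4 to 5). For mutant against control without copper it went from 2 to 4 with DESeq2, 1 with only that comparison's libraries, 1 with the replicate block, 5 with length offsets (4 higher) and 10 without the 5 libraries with few long transcripts (9 higher). Leaving out 1 library gave 0 to 4. It was 1 without untreated control replicate 1, a gene called higher, where the 2 of the main count and the other single calls were lower. It was 1 without copper-treated control replicate 2, 3 or 4, 1 without untreated mutant replicate 2, 0 without untreated mutant replicate 1, 3 or 4, 1 without copper-treated mutant replicate 1, 2 or 3, and 4 (3 lower) without copper-treated mutant replicate 4. For copper in the control the 0 became 1 with the CPM filter of 5, 1 with DESeq2 and 1 without the 5 libraries, and 0 to 2 when 1 library was left out (2 without untreated control replicate 2, 1 without untreated control replicate 4 or copper-treated mutant replicate 4). For the interaction the 0 became 1 without a filter beyond 1 count, 2 with DESeq2 and 3 without the 5 libraries, and 0 to 4 when 1 library was left out (4 without untreated control replicate 2 or copper-treated control replicate 1, 1 without untreated mutant replicate 3). Over these alternatives the share of all genes called ran from 7.59% to 38.9% for mutant against control without copper, 3.9% to 23.4% with copper, 0.133% to 9.03% for copper in the control, 1.14% to 14.5% in the mutant and 2.75% to 22.1% for the interaction. Apart from values given in the report, the cause of these shifts was not tested. Over the 35 values of the 7 named genes, 833 alternatives gave 29 lost calls, 28 gained calls and 0 called values of the opposite sign. Deviations of same-numbered libraries had r from -0.597 to 0.554, over 0.1 in 6 of 24 pairs. Those of other pairs between groups had r from -0.756 to 0.791, over 0.1 in 24 of 72. Equal numbers thus did not go with closer deviations, but the labels do not state whether they pair the samples. The replicate block gave 1, 5, 0, 4 and 0 calls in the 5 comparisons. Low counts limit the 24 untested genes, none of which had more than 105 counts in all.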
